A study of Mus musculus with 9 samples.

Results

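The hairpin shTdp-43-2, a short hairpin RNA (shRNA) against the mouse Tdp-43 transcript, was compared with a control hairpin (shCont) in cultured cortical neurons. The comparison holds the 3 arrays labelled as shTdp-43-2 and the 3 labelled as control shRNA, so 6 of the 9 arrays of the series. The remaining 3 arrays carry a second hairpin against the same transcript, shTdp-43-1, and served to ask which changes of shTdp-43-2 were absent there. Every culture came from cortical tissue of C57BL/6 embryos at embryonic day 15 and, per the labels' protocols, received BDNF, CNTF and, on the day after plating, AraC, which removes dividing cells. On day 5 the cells were exposed for 4 h to a lentivirus carrying shTdp-43-2, shTdp-43-1 or shCont, were kept for 6 days more and were harvested on day 11. The controls thus differ from the knockdown cultures in the hairpin and share the virus. The design text of the series speaks of motor neurons and counts the days from transfection, and the sample labels were followed here. The labels do not say whether the 3 samples of a group were separate cultures, so p-values measure the spread between these samples, which may be technical. For each sample 100 ng of RNA was labelled for an Affymetrix exon array, which reads each gene through many probe sets spread over its exons.

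Tdp-43, encoded by Tardbp, is a nuclear RNA-binding protein that binds UG-rich stretches of introns and 3' ends, represses or promotes the inclusion of exons and limits its own messenger RNA. It is the main protein of the inclusions found in most cases of amyotrophic lateral sclerosis (ALS) and in many of frontotemporal lobar degeneration (FTLD). An RNA hairpin acts through the small RNA cut from it, and comparing hairpins of different sequence is the usual way to see which changes they have in common.

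A gene's value is the mean log2 value of its probe sets, and a difference is called at a Benjamini-Hochberg adjusted p under 0.05 from limma. The medians of the 16770 tested genes lay between 8.86 and 8.94 on the shCont arrays and between 8.75 and 8.89 on the shTdp-43-2 arrays. Across genes, which are not independent replicates, shTdp-43-2 arrays correlated with each other at r from 0.985 to 0.992 and with shCont arrays at r from 0.966 to 0.981. Markers of excitatory neurons averaged 10.11 to 10.25 on the shTdp-43-2 arrays and those of inhibitory neurons 9.57 to 9.58, against 7.1 to 7.73 for microglia and a median of 6.07 over all probe sets. Astrocyte markers averaged 10.06 to 10.11. Probe sets differ in brightness, so these levels show that the markers were measured and not how many cells of each type there were. Tardbp read 9.77, 9.94 and 10.06 on the shCont arrays and 8.22, 8.58 and 7.90 on the shTdp-43-2 arrays. That is 30.9% of the control level (log2 change -1.69 ± 0.186 SE, limma adjusted p = 0.000109), and the groups did not overlap. On the shTdp-43-1 arrays Tardbp read 7.84, 8.23 and 8.55, which is 30.4% of the control level. The hairpins differed for Tardbp by 0.03 (95% interval -0.38 to 0.43, limma adjusted p = 0.956).

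With shTdp-43-2, 3667 genes were called, which is 21.9% of those tested. Of these 1301 were higher (7.76%) and 2366 lower (14.1%). The typical size was small, with a median log2 size of 0.44 among called genes, and 60 rose and 92 fell at least 2-fold. The split between the directions depends on scaling: it was 2178 higher and 1717 lower with each array centred on its median, and 1793 higher and 2113 lower after quantile normalization. The median change of all genes was -0.008 as deposited and 0.076 after centring. In these bulk samples fewer cells of a type and less RNA per cell cannot be told apart.

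Cryab, Lgals1, Adgrg6 and Egfl6 were among the largest rises, and the shCont and shTdp-43-2 arrays overlapped for none of these 4. Cryab, which encodes the small heat shock protein alpha-B crystallin, read 8.40, 8.30 and 8.20 with shCont and 10.14, 10.11 and 10.05 with shTdp-43-2. It rose 3.48-fold (log2 1.80 ± 0.118 SE, n = 3 against 3, limma adjusted p = 7.13e-06). With shTdp-43-1 Cryab read 8.98, 8.70 and 8.46, a log2 change of 0.41, and the hairpins differed by 1.39 ± 0.118 (limma adjusted p = 8.02e-05). All 3 shTdp-43-2 arrays lay above every other array for this gene. Lgals1, which encodes the galactoside-binding lectin galectin-1, read 8.27, 7.83 and 8.92 with shCont and 10.11, 10.05 and 10.22 with shTdp-43-2. The control arrays of Lgals1 were spread over more than a log2 unit, and the shTdp-43-2 arrays still lay above all of them. Lgals1 rose 3.44-fold (log2 1.78 ± 0.205 SE, limma adjusted p = 0.000145). Adgrg6, an adhesion G protein-coupled receptor known for its part in Schwann cell myelination, read 6.93, 6.90 and 6.91 with shCont and 8.75, 8.72 and 8.23 with shTdp-43-2. It rose 3.15-fold (log2 1.65 ± 0.122 SE, limma adjusted p = 1.17e-05), with no overlap between the groups. Egfl6, a secreted matrix protein with EGF-like repeats, rose by log2 1.64 ± 0.112 (limma adjusted p = 8.12e-06), from 6.88, 6.65 and 7.07 to 8.45, 8.62 and 8.44. The control levels of Adgrg6 and Egfl6 lay not far above the 6.07 median of all probe sets, so the sizes of their rises are uncertain.

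Others among the 15 largest rises act in signalling and at the membrane. Rasgrf1, an exchange factor for Ras in neurons, rose by log2 1.91, the synaptic vesicle glycoprotein Sv2c by 1.48 and the cell adhesion gene Cdh6 by 1.48. Ilk, the integrin-linked kinase, rose by 1.40 and the filamin-binding Rflnb by 1.48, while the glycosyltransferases Gcnt2 and St6gal1 rose by 1.41 and 1.38. Mrps36 (1.66), the ciliary gene Cfap206 (1.44), Fam81a (1.38) and the glutaminyl cyclase Qpctl (1.35) complete the 15. The standard errors of these log2 changes ran from 0.0877 for Fam81a to 0.134 for Gcnt2. Many of these genes were also called higher with shTdp-43-1: Rasgrf1 (1.57), Qpctl (1.28), Mrps36 (1.26), Fam81a (1.12), Ilk (1.06), Rflnb (1.00), Cfap206 (0.83) and Gcnt2 (0.68). Cdh6 (0.43), Sv2c (0.27) and St6gal1 (0.22) were not called there.

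Among the largest falls a long noncoding RNA stood first. Oip5os1, also called Cyrano, is known for binding a microRNA through a conserved, extensively paired site. It read 12.15, 12.05 and 11.93 with shCont and 9.81, 10.00 and 9.68 with shTdp-43-2, and 12.23, 11.93 and 12.15 with shTdp-43-1. Oip5os1 fell 4.63-fold with shTdp-43-2 (log2 -2.21 ± 0.108 SE, limma adjusted p = 2.97e-06), whereas its change with shTdp-43-1 was 0.06 (95% interval -0.18 to 0.30). Its value rests on only 3 probe sets, against a median of 12 per gene. Tspan2, a tetraspanin of the cell membrane, read 9.76, 9.64 and 9.58 with shCont and 7.28, 7.78 and 7.44 with shTdp-43-2. Tspan2 fell 4.47-fold (log2 -2.16 ± 0.131 SE, limma adjusted p = 5.75e-06), and every shTdp-43-2 array lay below all others. Agt, which encodes angiotensinogen and is made by astrocytes in the brain, read 9.66, 9.39 and 9.87 with shCont and 7.40, 7.48 and 7.42 with shTdp-43-2. Agt fell by log2 2.20 ± 0.140, and further than with shTdp-43-1 (difference -1.02 ± 0.140, limma adjusted p = 0.00103). Slc44a5, a choline transporter-like protein, fell by log2 1.98, and Aldh1a3, an enzyme that makes retinoic acid, fell by 1.91. The changes with shTdp-43-1 were -0.87 for Slc44a5 and -0.51 for Aldh1a3, and both differed between the hairpins (limma adjusted p = 0.000274 and 0.000247).

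The rest of the 15 largest falls held the proteoglycan gene Kera (-1.92), Tardbp, the sulfate donor enzyme Papss2 (-1.65), the phospholipase-like gene Plcxd2 (-1.62) and Lhfpl1 (-1.62). They also held Map7d2, a microtubule-associated protein (-1.53), Eogt, which adds N-acetylglucosamine to EGF domains (-1.52), the desmosomal cadherin Dsc3 (-1.43), Tmem263 (-1.43) and Nkap (-1.42). For each of these 30 genes the 3 shTdp-43-2 arrays lay outside the range of the 3 shCont arrays, which the rule that chose them required. Over all genes 38.7% had groups that did not overlap. Kera, like Oip5os1, was read by only 3 probe sets. Kera (-1.19), Nkap (-0.92), Papss2 (-0.90), Lhfpl1 (-0.61) and Plcxd2 (-0.50) were also called lower with shTdp-43-1. Dsc3 (-0.40), Eogt (-0.21), Tmem263 (-0.16) and Map7d2 (0.06) were not called there.

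A gene was taken as apart from shTdp-43-1 where it was called with shTdp-43-2 against shCont, called in the same direction against shTdp-43-1, and not called with shTdp-43-1 against shCont. The comparisons with shCont share the 3 control arrays, so the direct difference between the hairpins carries this definition. Of 2565 genes called with shTdp-43-2 and not with shTdp-43-1, 1095 were apart (6.53% of all tested), and for the other 1470 the difference between the hairpins itself was not called. The 1095 genes were 303 higher (1.81%) and 792 lower (4.72%). The difference between the hairpins was itself called for 1934 genes (11.5%), 708 higher (4.22%) and 1226 lower (7.31%) with shTdp-43-2, and shTdp-43-1 against shCont gave 1865 calls (11.1%), 865 higher (5.16%) and 1000 lower (5.96%). With centred arrays the split was 581 and 657, and after quantile normalization 484 and 790. At least 2-fold changes with shTdp-43-2 were seen for 24 of those higher and 47 of those lower. A missed call with shTdp-43-1 does not show that a gene kept its level there: among the 1095, shTdp-43-1 against shCont gave 192 unadjusted p-values below 0.05. For 564 of them the 95% interval of the shTdp-43-1 change lay short of 50% of the log2 change with shTdp-43-2. Leaving out shTdp-43-2 replicate 1 lowered the count to 575. Genes of this kind were ranked by the smaller of their log2 changes against shCont and against shTdp-43-1.

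**Figure D1:**
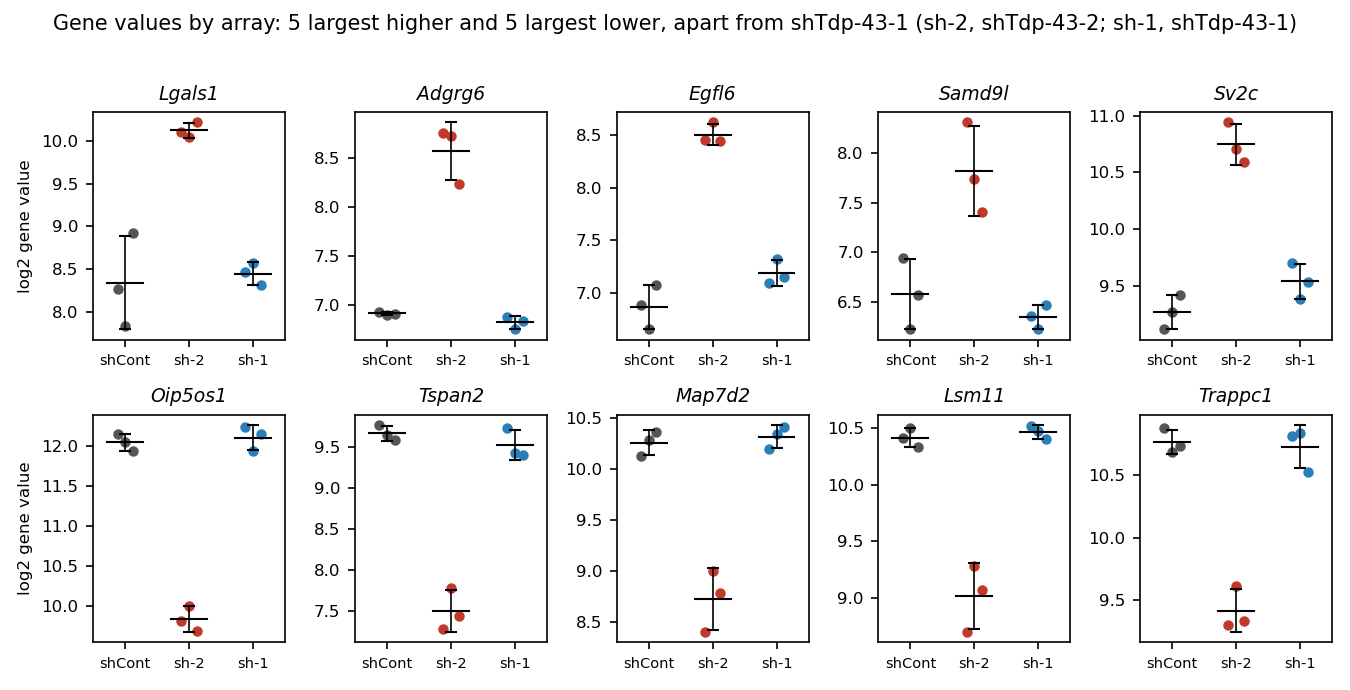
Log2 gene value on each array (dots) with the group mean and SD (bars, n = 3) for the 5 largest higher and 5 largest lower genes apart from shTdp-43-1; sh-2 is shTdp-43-2 and sh-1 is shTdp-43-1. In each panel the 3 shTdp-43-2 arrays lie outside the range of the 6 other arrays, which the rule that chose these genes favours. For Oip5os1 the shTdp-43-2 arrays read 9.68 to 10.00 against 11.93 to 12.23.

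The 15 largest rises apart from shTdp-43-1 included, besides Lgals1 and Egfl6, Angptl2, an angiopoietin-like factor, Egflam, which encodes pikachurin, a matrix ligand of dystroglycan, and Chrdl1, an antagonist of bone morphogenetic proteins that astrocytes release; these 3 encode secreted proteins. Egflam read 7.04, 7.02 and 6.82 with shCont, 8.44, 8.13 and 7.90 with shTdp-43-2, and 7.10, 7.11 and 7.07 with shTdp-43-1. It rose by log2 1.20 ± 0.122, and its change under shTdp-43-1 was 0.13 (95% interval -0.13 to 0.40). Chrdl1 rose by 1.10 ± 0.182, and Angptl2 by 1.13 ± 0.107, where its change with shTdp-43-1 was -0.31. At the membrane, Cybrd1, a ferric reductase, read 9.65, 9.38 and 10.05 with shCont and 10.99, 10.95 and 10.98 with shTdp-43-2. Cybrd1 rose by 1.28 ± 0.136, and its shTdp-43-1 arrays, at 9.86, 9.85 and 9.71, lay within the range of the controls. Inside the cell, Akap12, a scaffold for protein kinase A, rose by 1.02 ± 0.0846, against 0.01 with shTdp-43-1 (95% interval -0.18 to 0.19). Cep43, a centrosomal protein, rose by 1.15 ± 0.0708 and Samd9l, an interferon-induced antiviral factor, by 1.24 ± 0.212 over only 3 probe sets. Samd9l read 6.94, 6.23 and 6.57 with shCont. Its control level and that of Egflam lay not far above the 6.07 median of the table. Probe sets were kept on their mean over 9 arrays, which favours those raised by shTdp-43-2, so the sizes of both rises are uncertain.

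The 15 largest falls apart from shTdp-43-1 included Ncs1, Necab2, Frrs1l and Cyria, which act in calcium sensing, receptor assembly and actin control in neurons. Ncs1, the neuronal calcium sensor, read 11.68, 11.68 and 11.58 with shCont, 10.12, 10.37 and 10.19 with shTdp-43-2, and 11.70, 11.46 and 11.44 with shTdp-43-1. It fell 2.67-fold (log2 -1.42 ± 0.0967 SE, limma adjusted p = 8.12e-06) and differed between the hairpins by -1.31 ± 0.0967. Necab2, another calcium-binding protein of neurons, fell by 1.12, and Frrs1l, which helps to assemble AMPA receptors, by 1.16. Cyria, an inhibitor of Rac1 signalling to the actin cytoskeleton, read 12.38, 12.44 and 12.47 with shCont and 10.97, 11.38 and 11.33 with shTdp-43-2, a fall of 1.20 ± 0.102. With shTdp-43-1 Cyria read 12.35, 12.33 and 12.33, a change of -0.09 (95% interval -0.32 to 0.13).

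Lsm11 and Trappc1, which act in RNA processing and membrane traffic, were also among them. Lsm11, a part of the U7 ribonucleoprotein that cuts the 3' ends of histone transcripts, read 10.41, 10.50 and 10.33 with shCont and 8.70, 9.28 and 9.07 with shTdp-43-2. Lsm11 fell 2.63-fold (log2 -1.40 ± 0.126 SE, limma adjusted p = 3.49e-05), and its change with shTdp-43-1 was 0.05 (95% interval -0.22 to 0.33). Trappc1, a subunit of a vesicle tethering complex, fell by 1.36 ± 0.113 and Ttc19, an assembly factor of respiratory complex III, by 1.41 ± 0.0808. Ada, which encodes adenosine deaminase, fell by 1.40 ± 0.0932 and the sialyltransferase St3gal1 by 1.36 ± 0.114. Of the 30 genes named under this rule, 25 met it under every alternative run. Of 18 alternatives each, Egfl6 met it in 16, Angptl2 in 15, Ap1s3 and Ttc19 in 12 and Cdh6 in 11.

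**Figure D2:**
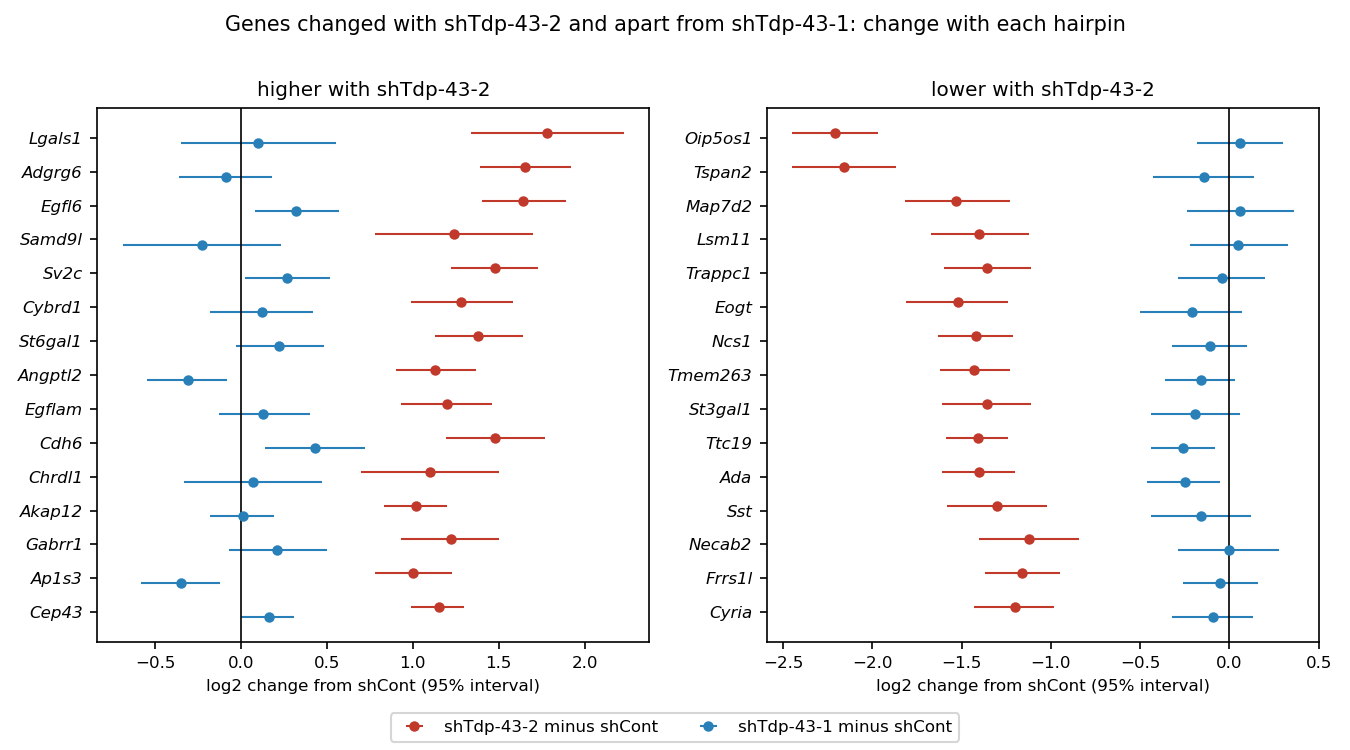
Log2 change from shCont with shTdp-43-2 (red) and shTdp-43-1 (blue), with 95% intervals, for the 15 largest higher (left) and 15 largest lower (right) genes apart from shTdp-43-1. The rule that chose these 30 genes required a call with shTdp-43-2, so it sets the red intervals away from 0. It also required no call with shTdp-43-1, which favours small blue changes. The blue points lie between -0.35 for Ap1s3 and 0.43 for Cdh6.

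Against the shared controls, 21 genes were called in opposite directions with the hairpins, and the 4 with the widest gap are given here, chosen after their values were seen. Mc4r, the melanocortin-4 receptor, read 10.59, 10.55 and 10.29 with shCont, 11.66, 11.68 and 11.75 with shTdp-43-2, and 9.67, 9.90 and 9.78 with shTdp-43-1. The 3 groups of Mc4r did not overlap, its log2 changes were 1.22 (shTdp-43-2) and -0.69 (shTdp-43-1), and the hairpins differed by 1.91 ± 0.0965 (limma adjusted p = 2.38e-06). Mc4r was read by only 3 probe sets. Rxfp1, a receptor for relaxin, changed by 0.95 and -0.68 (difference 1.63 ± 0.138), and Sema3c, a secreted semaphorin that guides axons, by 0.71 and -0.68 (difference 1.39 ± 0.144). Fam163a moved the other way, by -0.57 with shTdp-43-2 and 0.75 with shTdp-43-1 (difference -1.31 ± 0.129, limma adjusted p = 0.000201).

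Gene lists were read against the background of 21.9% called. In the sentences below "under every alternative" means that the call with shTdp-43-2 was made in each other setting run (17 to 19 for a gene). List medians stand beside a median of -0.0075 over all genes.

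Neuropeptide genes encode the secreted precursors by which cortical interneurons and other neurons signal. The list used here under that name also holds Bdnf, Igf1 and Nxph1, which encode secreted proteins of other kinds. Of 22 tested, 5 rose and 9 fell (63.6% called, median -0.10), and 7 of the 14 calls were made under every alternative: Scg2, Penk and Adcyap1 higher, and Sst, Nts, Grp and Vip lower. With shTdp-43-1, 4 of the 22 rose and 1 fell (backgrounds 5.16% and 5.96%). Sst, the somatostatin gene, read 10.78, 10.52 and 10.37 with shCont, 9.25, 9.15 and 9.37 with shTdp-43-2, and 10.60, 10.44 and 10.16 with shTdp-43-1. It fell 2.47-fold with shTdp-43-2 (log2 -1.30 ± 0.129 SE, limma adjusted p = 6.08e-05), without overlap, and the hairpins differed by -1.14 ± 0.129. Nts, the neurotensin gene, read 9.16, 9.34 and 9.66 with shCont and 7.99, 8.54 and 8.10 with shTdp-43-2, a fall of 1.18 ± 0.155. Vip, the gene of vasoactive intestinal peptide, fell by 0.78 ± 0.114 and Grp, gastrin-releasing peptide, by 0.81 ± 0.0831. Scg2, which encodes secretogranin II of dense-core vesicles, moved the other way: it read 10.07, 9.97 and 10.12 with shCont and 11.11, 11.25 and 10.97 with shTdp-43-2, a rise of 1.06 ± 0.0925. Its change with shTdp-43-1 was 0.33, and the difference between the hairpins was 0.73 ± 0.0925 (limma adjusted p = 0.000644). Sst, Vip, Nts and Nxph1, which encodes neurexophilin 1 (-0.32, called in 11 of 19 alternatives), were apart from shTdp-43-1, and none of the 5 that rose was.

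**Figure D3:**
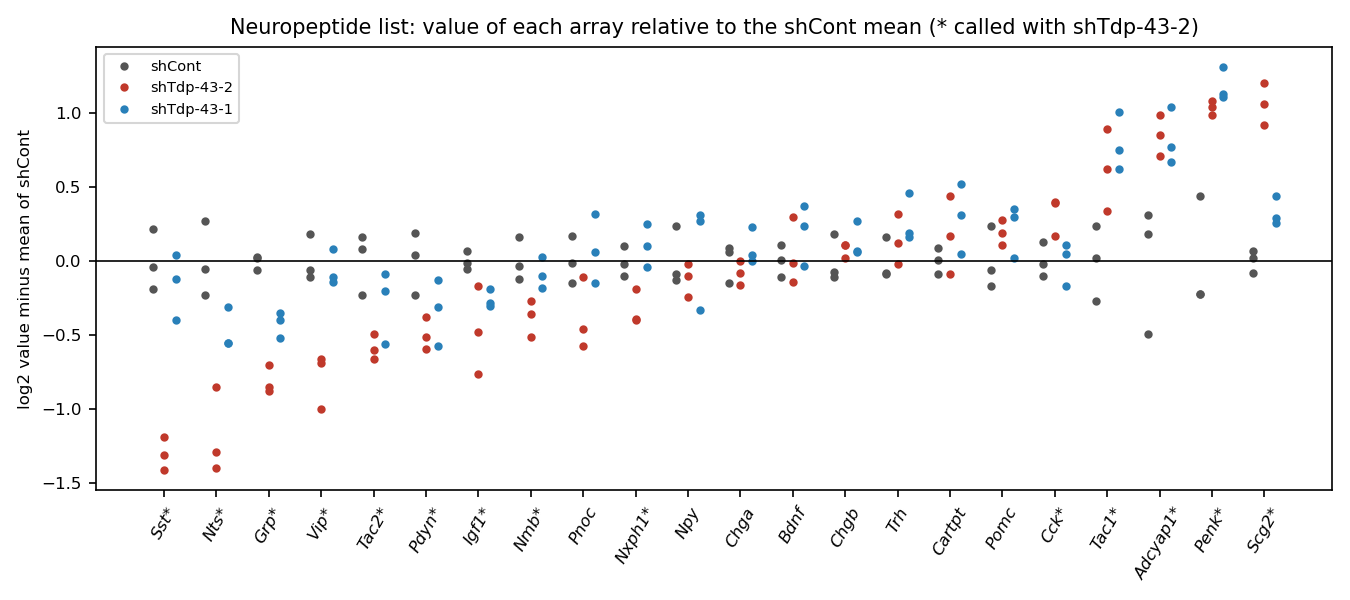
Log2 value of each array minus the shCont mean for the 22 tested neuropeptide genes, ordered by their change with shTdp-43-2; dots are arrays (3 per group) and an asterisk marks a call with shTdp-43-2. Sst, Nts and Vip lie low on the shTdp-43-2 arrays with the shTdp-43-1 arrays near 0 or between, and Scg2 lies high, with log2 changes of -1.30, -1.18, -0.78 and 1.06.

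The promoters of Sst and Scg2 are shown because these genes moved in opposite directions while their promoters hold the same motif. Promoter sequences are those of RefSeq (GRCm38.p6), 300 bases each, 5' to 3' on the gene's strand. The motif searched was the cyclic AMP response element TGACGTCA, which reads the same on both strands, and capitals mark it.
Sst, chr16:23890795-23891094, minus strand: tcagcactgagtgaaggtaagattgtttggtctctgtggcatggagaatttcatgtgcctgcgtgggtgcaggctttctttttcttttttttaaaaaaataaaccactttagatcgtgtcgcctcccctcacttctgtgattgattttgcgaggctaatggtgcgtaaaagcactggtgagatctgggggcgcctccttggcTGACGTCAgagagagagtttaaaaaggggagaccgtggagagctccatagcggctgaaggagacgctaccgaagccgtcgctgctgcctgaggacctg
Scg2, chr1:79439977-79440276, minus strand: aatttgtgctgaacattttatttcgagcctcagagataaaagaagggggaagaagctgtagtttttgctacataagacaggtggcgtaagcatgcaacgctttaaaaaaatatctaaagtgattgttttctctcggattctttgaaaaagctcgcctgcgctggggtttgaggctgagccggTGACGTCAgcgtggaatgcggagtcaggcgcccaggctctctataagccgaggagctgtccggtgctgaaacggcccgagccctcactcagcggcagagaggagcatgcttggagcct
The match begins 48 bases before the start of Sst and 68 bases before that of Scg2. Of all 32851 promoters, 588 (1.79%) hold this motif. Of the 19 neuropeptide genes with a promoter in the table, 4 do: Sst, Scg2 and, not called, Cartpt (log2 0.17) and Chgb (0.07). A match describes the letters and does not show binding.

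Genes that detoxify oxidants and make glutathione were called both ways. Among 27 tested, 5 rose and 5 fell (37.0% called, median -0.02), and with centred arrays 8 rose and 4 fell. Under every alternative Mgst1, Nqo1 and Srxn1 were higher and Gstm1, Gpx1, Txnrd2 and Gss lower. Mgst1, a microsomal glutathione transferase, read 8.10, 7.94 and 8.58 with shCont and 9.31, 9.27 and 9.32 with shTdp-43-2, a rise of 1.10 ± 0.135 (limma adjusted p = 0.000219). Srxn1, the sulfiredoxin that repairs peroxiredoxins, read 9.45, 9.58 and 9.64 with shCont and 10.16, 10.11 and 10.05 with shTdp-43-2, a rise of 0.55 ± 0.0908. Slc7a11, the cystine transporter that supplies glutathione synthesis, rose by 1.23 ± 0.307, but its controls spread from 8.29 to 9.53 and the call was made in 16 of 19 alternatives. The change of Slc7a11 was 1.00 without shCont replicate 1 (limma adjusted p = 0.061), 1.07 without shCont replicate 2 (adjusted p = 0.0605) and 1.10 without shTdp-43-2 replicate 2 (adjusted p = 0.0571). In the other direction Gstm1, a cytosolic glutathione transferase, fell by 0.78 and Gpx1, a glutathione peroxidase, by 0.70, and both were apart from shTdp-43-1, where they changed by 0.09 and -0.15.

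Promoters of Mgst1 and Srxn1, which rose, are printed for the antioxidant response element core TGACNNNGC, searched on both strands and marked in capitals. Here both matches lie on the opposite strand, so the capitals show the reverse complement of the core.
Mgst1, chr6:138140277-138140576, plus strand: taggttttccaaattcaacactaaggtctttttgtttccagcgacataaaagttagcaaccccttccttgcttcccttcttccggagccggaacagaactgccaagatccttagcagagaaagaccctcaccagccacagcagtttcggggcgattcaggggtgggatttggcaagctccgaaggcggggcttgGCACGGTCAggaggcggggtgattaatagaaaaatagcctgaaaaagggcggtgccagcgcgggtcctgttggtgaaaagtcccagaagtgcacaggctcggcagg
Srxn1, chr2:152105274-152105573, plus strand: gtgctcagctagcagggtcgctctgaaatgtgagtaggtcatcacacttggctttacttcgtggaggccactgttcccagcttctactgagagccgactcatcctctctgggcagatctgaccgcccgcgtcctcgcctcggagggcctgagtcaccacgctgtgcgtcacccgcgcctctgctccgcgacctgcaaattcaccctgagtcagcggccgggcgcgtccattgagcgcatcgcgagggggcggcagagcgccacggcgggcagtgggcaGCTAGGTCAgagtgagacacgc
The match begins 56 bases before the start of Mgst1, and that of Srxn1 begins 28 bases after the start of the gene. The core is common, with 4071 of 32851 promoters (12.4%) holding it. In the list 7 of 22 genes with a promoter hold it. Of the 10 called genes with a promoter, 3 hold it (Mgst1, Srxn1 and the regulator gene Nfe2l2). The other holders were not called: Gclm (log2 -0.15), Prdx1 (-0.02), Sod1 (-0.03) and Txnrd1 (-0.01).

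Receptors for inhibitory transmitters rose more often than they fell. Of 22 genes for GABA and glycine receptors, 8 rose and 2 fell (45.5% called, median 0.18), and 7 of the rises were made under every alternative. Glra1, a glycine receptor subunit, read 6.92, 6.85 and 6.73 with shCont and 8.28, 8.13 and 7.94 with shTdp-43-2, a rise of 1.28 ± 0.109. Its 8 probe sets rose by 0.33 to 3.03. The largest rise was that of probe set 5543670, at 5.58, 5.46 and 5.81 with shCont, below the 6.07 median of the table. That probe set passed the filter through the shTdp-43-2 arrays, so the size of the rise of Glra1 is uncertain. Gabrr1, a rho subunit of GABA-A receptors, read 7.35, 7.15 and 7.08 with shCont, 8.51, 8.49 and 8.23 with shTdp-43-2, and 7.65, 7.43 and 7.15 with shTdp-43-1. Gabrr1 rose by 1.22 ± 0.130 and was apart from shTdp-43-1, as were Glra2 (0.45 ± 0.0835) and Gabrd (0.43). Gabbr2, a subunit of the metabotropic GABA-B receptor, rose by 1.13 with shTdp-43-2 and 0.90 with shTdp-43-1. Gabrg3 fell by 0.37 and Gabrg1 by 0.53, the latter called in 12 of 19 alternatives. With shTdp-43-1, 3 of the 22 rose.

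Glutamate receptor genes were called more often than the background, in equal numbers each way. Of 24, 5 rose and 5 fell (41.7%, median 0), and 7 rose and 5 fell with centred arrays. Only Grm8 and Grm2, metabotropic receptors that damp transmitter release, were called under every alternative. Grm8 rose by 0.68 ± 0.138, from 8.82, 8.59 and 8.55 to 9.41, 9.42 and 9.19, and Grm2 fell by 0.58 ± 0.125, from 10.31, 10.06 and 9.77 to 9.48, 9.50 and 9.43. Both were apart from shTdp-43-1, where they changed by 0.03 and -0.01. Of the NMDA receptor subunits, Grin1, present in every such receptor, changed by 0.27 (called in 11 of 19 alternatives), while Grin2a changed by -0.62, Grin2d by -0.49, Grin2c by -0.44 and Grin3a by -0.41, and each of the latter 4 calls was lost under 1 of 19 alternatives. Grin2b (-0.08) and Grin3b (0.14) were not called. With shTdp-43-1, 1 of the 24 fell.

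Among channel genes, auxiliary subunits of calcium and sodium channels gave the changes described first. Cacna2d1, the alpha-2-delta subunit that brings calcium channels to the membrane, read 10.83, 10.99 and 10.92 with shCont, 9.50, 9.97 and 9.66 with shTdp-43-2, and 10.81, 10.57 and 10.79 with shTdp-43-1. It fell 2.31-fold (log2 -1.21 ± 0.119 SE, limma adjusted p = 6.08e-05), and the shTdp-43-2 arrays lay below all 6 others. Of the 24 calcium channel genes 3 rose and 5 fell (33.3%), and under centring 5 rose and 4 fell. The pore subunits Cacna1h and Cacna1b fell by 0.65 and 0.52, Cacnb4 by 0.38, and Cacng5 rose by 0.98, all under every alternative. Of 13 sodium channel genes, Scn3b, a beta subunit, fell by 1.08 ± 0.0875, from 11.39, 11.36 and 11.39 to 10.18, 10.44 and 10.29. It changed by -0.06 with shTdp-43-1 (95% interval -0.25 to 0.13).

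Potassium channel genes numbered 82, of which 9 rose and 17 fell (31.7%, median 0.03), while centring gave 14 and 14. Under every alternative 4 rose and 12 fell. Of the inward rectifiers, Kcnj2 (-1.12), Kcnj10 (-0.81) and Kcnj16 (-0.79) fell and Kcnj6 (0.57, called in 18 of 19 alternatives) rose. Kcnj10, the main potassium-buffering channel of astrocytes, read 10.03, 9.90 and 10.14 with shCont and 9.31, 9.29 and 9.03 with shTdp-43-2 and was apart from shTdp-43-1. Of the auxiliary proteins of A-type channels, Kcnip2 fell by 0.57 and Kcnip1 by 0.55, both apart from shTdp-43-1, whereas Kcnip4 rose by 0.48 and the pore gene Kcnd2 by 0.49. Of the 82, 6 rose and 6 fell with shTdp-43-1.

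Vesicle release genes were called more often higher than lower. Of 36 genes of vesicle release, 7 rose and 5 fell (33.3%), and 12 and 4 with centred arrays. Sv2c, a vesicle glycoprotein, read 9.12, 9.27 and 9.42 with shCont, 10.94, 10.71 and 10.59 with shTdp-43-2, and 9.70, 9.39 and 9.54 with shTdp-43-1. The hairpins differed for Sv2c by 1.21 ± 0.116 (limma adjusted p = 0.000179). Stx1a, a syntaxin of vesicle fusion, rose by 1.07, Amph, an amphiphysin of endocytosis, by 1.02, and the scaffolds Bsn and Erc1 by 0.55 and 0.54. Napb, which helps to recycle the fusion machinery, fell by 0.39 and was apart from shTdp-43-1. Among the 36 genes shTdp-43-1 gave 5 higher and 0 lower calls. Of 27 postsynaptic scaffold and kinase genes 3 rose and 5 fell (29.6%; 6 and 3 with centred arrays), and of 29 synaptic adhesion genes 6 rose and 3 fell (31.0%; 9 and 2 with centred arrays). Lrrtm4, Cntnap2 and Ncam2, which hold synaptic membranes together, rose by 0.48, 0.39 and 0.51, and Negr1 fell by 0.42, all apart from shTdp-43-1 and called under every alternative.

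Axon guidance genes changed in both directions. Of 70, 13 rose and 13 fell (37.1%, median 0.01), and 18 rose and 10 fell with centred arrays. The semaphorin Sema7a fell by 1.20, the plexin receptors Plxnd1 and Plxna4 by 0.99 and 0.90 and the ephrin receptor Epha6 by 0.78, the latter apart from shTdp-43-1 (0.07). Slit3, a repellent ligand, rose by 0.76, Plxnc1 by 0.77 and the attractant Ntn1 by 0.62. Among the 70 genes shTdp-43-1 gave 5 higher and 10 lower calls. Of 71 cadherins and protocadherins 8 rose and 6 fell (19.7%; 18 and 5 with centred arrays). Cdh6, at 10.32, 10.26 and 10.02 with shCont and 11.75, 11.71 and 11.57 with shTdp-43-2, rose by 1.48 ± 0.133 without overlap.

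**Figure D4:**
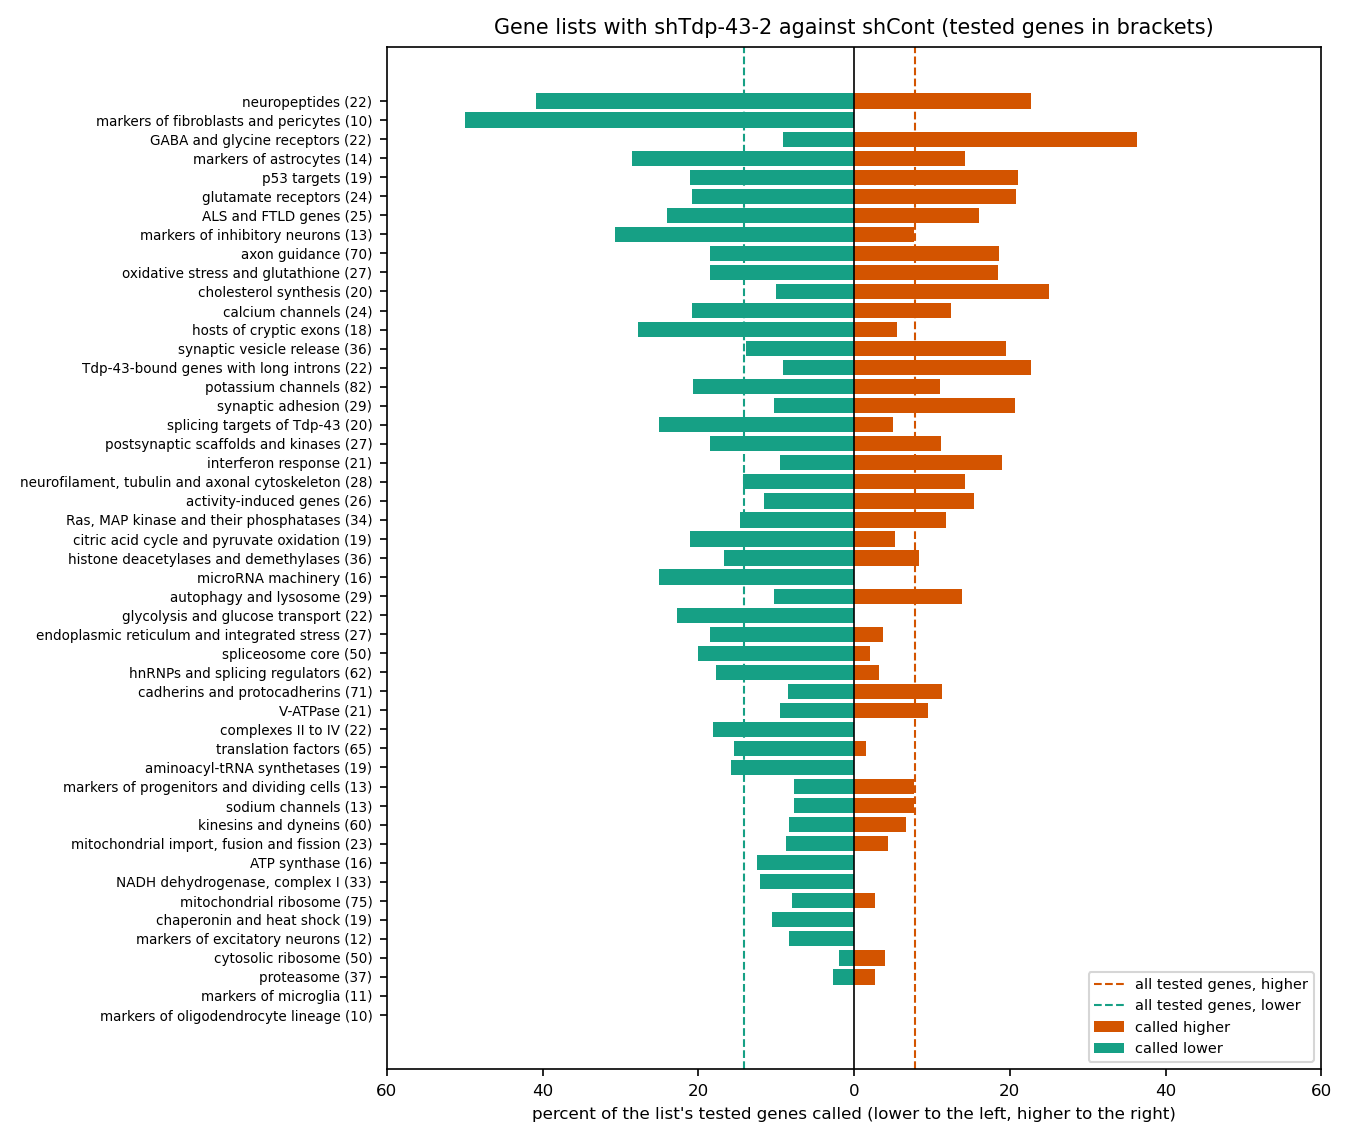
Share of each list's tested genes called higher (right) and lower (left) with shTdp-43-2 against shCont, for lists with at least 10 tested genes; dashed lines mark the shares over all 16770 genes, 7.76% higher and 14.1% lower. Neuropeptides (63.6% called) stand first and the proteasome (5.41%) is among the last; no test was made on the lists.

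Lists of cell maintenance gave shares on either side of the 21.9% background. Of 33 complex I genes 4 fell (12.1%, median -0.04; 2 fell with centred arrays), of 50 cytosolic ribosomal genes 2 rose and 1 fell (6.00%; 3 rose with centred arrays), and of 37 proteasome genes 1 rose and 1 fell (5.41%; 2 and 1 with centred arrays). Of 19 genes of the citric acid cycle and pyruvate oxidation 1 rose and 4 fell (26.3%), with citrate synthase, Cs, at 0.48. Ndufs1, the large iron-sulfur subunit of complex I, read 10.06, 10.11 and 10.14 with shCont, 9.29, 9.45 and 9.09 with shTdp-43-2, and 10.12, 10.01 and 9.95 with shTdp-43-1. It fell 1.77-fold (log2 -0.83 ± 0.0972 SE, limma adjusted p = 0.000171). It was the only member of complex I called under every alternative. Psmb10, an immunoproteasome subunit, fell by 0.67 and the heat shock protein Hspa4 by 0.67, both apart from shTdp-43-1.

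Slc2a1 and Eno2 fell among genes of glucose use, and Idi1 and Insig1 rose among genes of sterol synthesis. Of 22 genes of glycolysis and glucose transport 5 fell (22.7%, a share near the background, median -0.18), and with centred arrays 1 rose and 4 fell. Slc2a1, the glucose transporter GLUT1, read 11.35, 11.18 and 11.06 with shCont and 10.32, 10.36 and 10.19 with shTdp-43-2, a fall of 0.91 ± 0.108. Eno2, the neuronal enolase, read 10.09, 9.78 and 9.80 with shCont, 8.90, 9.10 and 9.05 with shTdp-43-2 and 10.28, 10.25 and 10.02 with shTdp-43-1. Eno2 fell by 0.88 ± 0.108, and the hairpins differed by -1.17 ± 0.108. Of 20 cholesterol synthesis genes, 5 rose and 2 fell (35.0%, median 0.15), and 7 and 1 with centred arrays. Idi1, an isomerase of the pathway, rose by 0.90 and Insig1 by 0.56. Hmgcs1, an early enzyme of the pathway, went the other way, from 12.39, 12.43 and 12.35 to 11.61, 11.89 and 11.78 (-0.63 ± 0.091), and was apart from shTdp-43-1 (0.19). Among the 20 genes shTdp-43-1 gave 4 higher and 0 lower calls (median 0.17).

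Genes of RNA and protein synthesis were called at shares of 15.8% to 22%, near or below the background of 21.9%, and the members named here are single genes. Of 65 translation factors, 1 rose and 10 fell (16.9%, median -0.10), and centring left 4 and 8. Eif4g2 and Eif4g1, scaffolds of translation initiation, fell by 0.75 and 0.57, Eif4b by 0.54 and Eif4ebp2, a repressor of initiation, by 0.53, and these 4 were apart from shTdp-43-1. Eif4g2 read 11.99, 12.16 and 12.21 with shCont and 11.13, 11.55 and 11.43 with shTdp-43-2. Of 19 aminoacyl-tRNA synthetases 3 fell (15.8%), with Yars at -0.69 ± 0.129 against 0.00 with shTdp-43-1. Of 62 hnRNP and splicing regulator genes, 2 rose and 11 fell (21%), and of 50 spliceosome genes 1 rose and 10 fell (22%), with 6 and 11, and 3 and 6, after centring. Hnrnpa1 fell by 0.51 and Srsf5 by 0.49, both apart from shTdp-43-1. Snrpn, a neuronal splicing protein from an imprinted locus, rose by 0.64.

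Edem1, Pdia4 and Rps6ka3 fell among the genes of the stress and signalling lists. Of 27 genes of the endoplasmic reticulum and integrated stress responses, 1 rose and 5 fell (22.2%, median -0.14; 2 and 4 with centred arrays). Edem1, which clears misfolded glycoproteins, fell by 1.11 ± 0.122 and the disulfide isomerase Pdia4 by 0.98 ± 0.101, and Pdia4 changed by -0.18 with shTdp-43-1. Of 19 p53 targets 4 rose and 4 fell (42.1%). Ccng1, which encodes cyclin G1, fell by 0.85, whereas Cdkn1a, the cell cycle inhibitor p21, changed by 0.44 with a call in 8 of 19 alternatives. Rps6ka3, a kinase downstream of ERK, fell by 1.21 ± 0.127, from 10.35, 10.48 and 10.26 to 9.14, 9.42 and 8.91, and changed by -0.16 with shTdp-43-1. Nptx1, an activity-regulated synaptic pentraxin, fell by 0.92 ± 0.106, against -0.08 with shTdp-43-1. Of 21 interferon response genes 4 rose and 2 fell (28.6%; 5 and 1 with centred arrays), and H2-D1, a class I histocompatibility gene, at -0.82, was the only 1 called under every alternative.

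Genes linked to ALS and FTLD were called in 10 of 25 cases (40.0%, median -0.11), 4 higher and 6 lower, Tardbp included. Chmp2b, part of an endosomal sorting complex, read 10.12, 10.41 and 10.42 with shCont and 11.22, 11.45 and 11.15 with shTdp-43-2, a rise of 0.96 ± 0.104, larger than with shTdp-43-1 (difference 0.51 ± 0.104, limma adjusted p = 0.00894). Kif5a, C9orf72 and Grn rose by 0.67, 0.63 and 0.56. Optn and Cyld, which act in selective autophagy and ubiquitin signalling, fell by 0.53 and 0.54. Among the 25 genes shTdp-43-1 gave 4 higher calls and 1 lower. Of 22 genes with long introns that Tdp-43 binds, 5 rose and 2 fell (31.8%; 7 and 1 with centred arrays), and of 18 hosts of cryptic exons 1 rose and 5 fell (33.3%; 2 and 5 with centred arrays). Fam83h, a cryptic exon host, fell by 1.05 and was apart from shTdp-43-1 (-0.40). Prph, the intermediate filament peripherin, read 7.77, 7.71 and 7.57 with shCont and 8.84, 8.98 and 8.90 with shTdp-43-2. Prph rose by 1.23 ± 0.090, against 0.50 with shTdp-43-1 (difference 0.73 ± 0.090, limma adjusted p = 0.000592).

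Markers of fibroblasts, pericytes and astrocytes were among the called genes. Of 10 fibroblast and pericyte markers 5 fell (50%, median -0.58), all 5 under every alternative: Kera, Dcn, Fn1, Rgs5 and Pdgfrb. Dcn, the proteoglycan decorin, read 10.36, 10.35 and 10.57 with shCont, 9.19, 9.42 and 9.22 with shTdp-43-2 and 10.16, 10.15 and 10.10 with shTdp-43-1. The mean level of the list was 8.62 to 8.66 on the shCont arrays and 8.03 to 8.18 on the shTdp-43-2 arrays. The shTdp-43-1 arrays lay between, at 8.31 to 8.40, with 3 of the 10 markers called lower there (median -0.31). Of 14 astrocyte markers 2 rose and 4 fell (42.9%, and 2 and 2 with centred arrays). Their mean level was 10.24 to 10.42 with shCont, 10.06 to 10.11 with shTdp-43-2 and 10.11 to 10.23 with shTdp-43-1. Under every alternative Agt (-2.20) and Aqp4 (-0.59) were lower and Vim, the intermediate filament vimentin, higher (0.60). Nes, the filament nestin of progenitors, rose by 0.60 and was apart from shTdp-43-1, while of 13 progenitor and dividing cell markers 1 rose and 1 fell (2 and 1 with centred arrays). Of 13 inhibitory neuron markers 1 rose and 4 fell (38.5%). Beside Sst and Vip, Gad2 rose by 0.65 and Gad1 changed by -0.32. Of 9 endothelial markers 2 rose (22.2%; 1 after quantile normalization), with Emcn at 0.47. Of 12 excitatory neuron markers 1 fell (8.33%), Neurod6 at -0.78 under every alternative, and with centred arrays 4 rose and 1 fell. Markers of microglia (11) and of the oligodendrocyte lineage (10) had 0 calls by limma, and 0 members at an unadjusted p under 0.05; with centred arrays 1 oligodendrocyte marker rose. The part of these shifts in cell markers in the changes of matrix, glial and interneuron genes was not tested.

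Probe sets within a gene can move apart where exons, starts or ends are used differently. The usage change is the log2 change of a probe set minus that of the rest of its gene. Of 248701 probe sets 3095 were called with limma's diffSplice (1.24%), 1327 with higher (0.534%) and 1768 with lower usage (0.711%), in 2066 genes. The test takes 1 spread for all probe sets of a gene. On simulated data whose probe sets differed in spread, its false calls outnumbered its true ones, so its counts and p-values are not read alone. A second test, added after seeing the data, used the spread of each probe set by itself and called 375 (0.151%), of which 336 (0.135%) were also called by diffSplice. These 336 lay in 248 genes, 160 with higher and 176 with lower usage. Of the 336, 89 were in genes whose mean was not called, and 288 had a change of their own in the direction of the usage change. The probe sets described next were called by both tests, and their adjusted p-values are those of diffSplice and of the second test in this order, both from limma. Positions of probe sets were not used here, so exons are given by probe set number.

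In Pde4d, which encodes a cyclic AMP phosphodiesterase with many alternative starts, probe set 4815458 read 6.69, 5.63 and 5.49 with shCont, 8.92, 8.71 and 8.10 with shTdp-43-2, and 6.1, 5.35 and 6.37 with shTdp-43-1. Its own change was 2.64 and that of the gene 0.30, giving a usage change of 2.43 ± 0.200 SE (adjusted p = 8.24e-20 and 0.040). With shTdp-43-1 the usage change was 0.09. The probe set passed the filter on its mean over 9 arrays (6.82) through the shTdp-43-2 arrays: 2 of its 3 shCont arrays lay below the 6.07 median of the table, so the change is taken from a dim level and its size is uncertain. Of the 26 probe sets of Pde4d 3 rose by at least 1 log2 unit and 19 stayed within 0.5, and the shTdp-43-1 changes lay between -0.46 and 0.29.

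In Camk2a, the alpha subunit of the synaptic kinase CaMKII, probe set 5216450 stood alone. It read 10.47, 10.57 and 10.28 with shCont, 8.03, 8.51 and 7.94 with shTdp-43-2, and 8.96, 8.74 and 8.62 with shTdp-43-1. Its own change was -2.28, while the other 31 of the 32 probe sets of Camk2a changed by -0.04 to 0.50. The usage change was -2.53 ± 0.183 with shTdp-43-2 (adjusted p = 1.26e-25 and 0.00131) and -2.29 with shTdp-43-1. Cemip2 showed the same form upward: probe set 5085525 rose by 2.12 in a gene that changed by 0.05, and the other 33 of its 34 probe sets changed by -0.27 to 0.41. Its usage change was 2.13 under shTdp-43-2, where shTdp-43-1 gave 2.21.

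Ncor1, a corepressor that recruits histone deacetylases, and Kcnma1, the large-conductance potassium channel, held low probe sets while most of their others changed by less than 0.5: 6 of the 77 in Ncor1 and 1 of the 42 in Kcnma1 fell by at least 1 log2 unit. Probe set 4365780 of Ncor1 read 7.75, 7.51 and 7.71 with shCont, 5.26, 5.82 and 5.29 with shTdp-43-2, and 7.02, 6.67 and 7 with shTdp-43-1. The usage change was -2.06 ± 0.176 (adjusted p = 1.12e-22 and 0.0084), and 69 of the 77 probe sets of Ncor1 changed by less than 0.5. On the shTdp-43-2 arrays this probe set lay below the 6.07 median of the table, in the range of dim probe sets. Probe set 5193338 of Kcnma1 read 10.06, 9.90 and 10.06 with shCont and 8.08, 8.10 and 7.37 with shTdp-43-2, a usage change of -2.05 ± 0.215 (adjusted p = 3.72e-14 and 0.0117), where the gene changed by -0.15. With shTdp-43-1 the usage changes were -0.69 for Ncor1 and -1.01 for Kcnma1. In Ube2w, a ubiquitin-conjugating enzyme, probe set 5541665 read 10.21, 10.13 and 9.97 with shCont, 7.89, 8.37 and 7.89 with shTdp-43-2, and 9.86, 9.72 and 9.48 with shTdp-43-1. Its usage change was -1.61 in a gene that changed by -0.56, and with shTdp-43-1 it was 0.01.

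**Figure D5:**
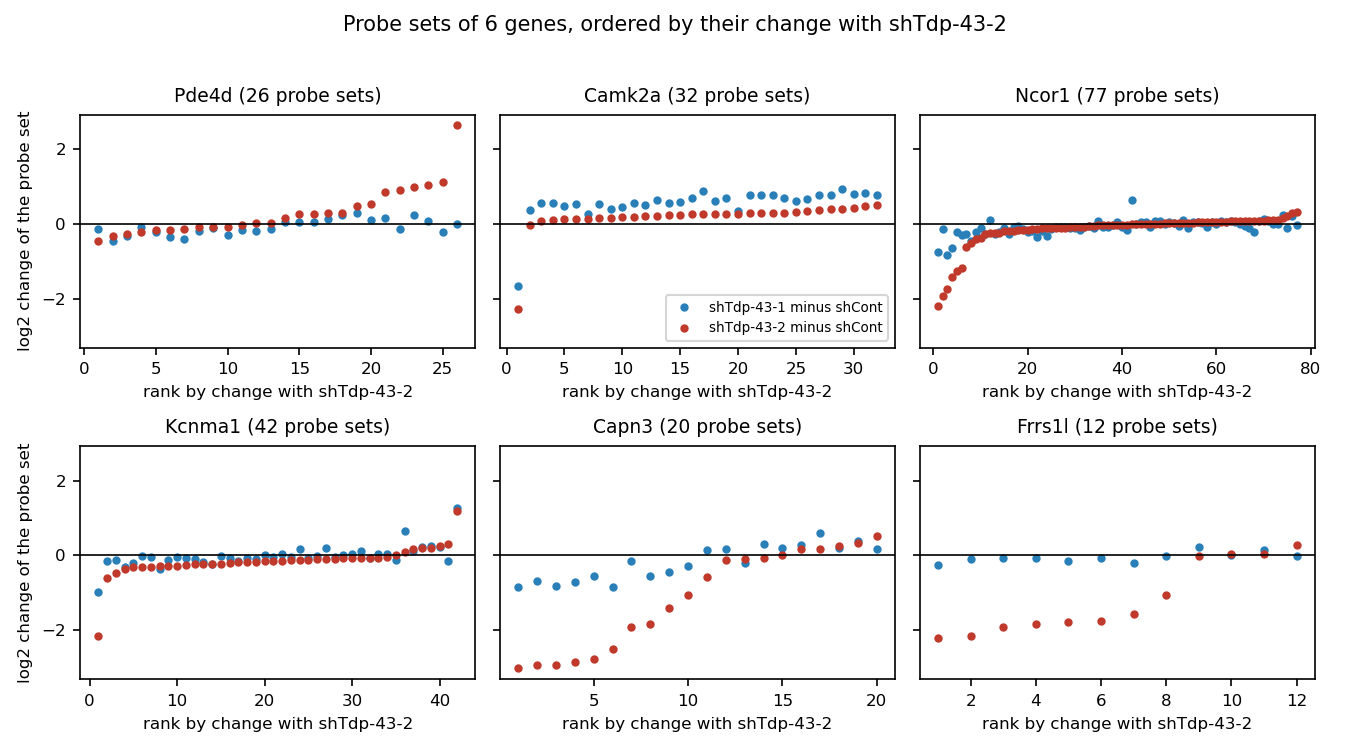
Log2 change of every kept probe set with shTdp-43-2 (red) and shTdp-43-1 (blue) against shCont in 6 genes; the x axis ranks the probe sets by their change with shTdp-43-2 and is not their order along the gene. In Pde4d, Camk2a, Ncor1 and Kcnma1 a few probe sets leave the rest. In Frrs1l the probe sets fall into a low group and a group near 0, and in Capn3 they run from -3.02 to 0.52.

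In a second pattern many probe sets of a gene fell while others kept their level. In Frrs1l 8 of 12 probe sets fell by at least 1 log2 unit, down to -2.20, and the other 4 changed by less than 0.5. With shTdp-43-1 all 12 probe sets of Frrs1l changed by -0.25 to 0.22. In Capn3, which encodes the calcium-dependent protease calpain 3, 10 of 20 probe sets fell by at least 1 unit, to -3.02 at the lowest, and 8 changed by less than 0.5. Aldh1a3 had 12 of 17 probe sets at least 1 unit lower, reaching -4.21 for probe set 4843776, which read 9.86, 10.45 and 10.21 with shCont and 5.33, 6.63 and 5.95 with shTdp-43-2. Probe set 4639286 of Aldh1a3 read 10.69, 10.79 and 10.74 with shCont and 10.72, 10.81 and 10.79 with shTdp-43-2. Higher usage of such a probe set thus stands for a level that did not follow the fall of its gene. The gene means of Frrs1l, Capn3 and Aldh1a3 average over both kinds of probe set. With shTdp-43-1 the probe sets of Capn3 changed by -0.85 to 0.60. Those of Aldh1a3 changed by -1.32 to 0.25 with shTdp-43-1, and 2 of them fell by at least 1 unit.

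Among genes with known Tdp-43 splicing, 16 of 497 probe sets were called by diffSplice (3.22% against 1.24% over all), 5 of them by both tests. These 5 lay in 4 genes: Sort1 (2), Dnajc5, Cemip2 and Mapt. Sort1 alone held 7 of the 16 calls, so the share rests in large part on this gene. With shTdp-43-1 diffSplice called 3 probe sets of Sort1, 1 of Dnajc5, 1 of Cemip2 and 0 of Mapt. In Sort1, the sorting receptor sortilin, probe sets 4453253 and 5130299 changed by 1.36 and 1.34 where the gene changed by 0.21, and their usage changed by 1.17 and 1.15. In Dnajc5, a vesicle chaperone, probe set 5415291 changed by 1.12 and its usage by 1.10. In Mapt, which encodes tau, probe set 4656386 read 12.31, 12.28 and 12.31 with shCont, 11.49, 11.60 and 11.36 with shTdp-43-2, and 12.27, 12.16 and 12.25 with shTdp-43-1. Its usage change was -0.74 ± 0.197 (adjusted p = 0.0268 and 0.0354), against 0.02 with shTdp-43-1, and diffSplice made the call in 10 of 15 alternatives. Hosts of cryptic exons had 9 of 456 probe sets called by diffSplice (1.97%) and genes with long introns 19 of 664 (2.86%), and the second test made none of these calls.

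By the definition used for genes, 482 probe sets (0.194%) had a usage change with shTdp-43-2 apart from shTdp-43-1, 172 higher (0.0692%) and 310 lower (0.125%), in 379 genes. With the spread of each probe set the difference between the hairpins was called for 0 probe sets by limma, so none met the definition there. In that test 17364 of 248701 probe sets had an unadjusted limma p under 0.05. A share near 0.05 passes this bound without any difference, so that count is not read as a result. The Pde4d probe set differed between the hairpins by 2.35 ± 0.331 in that test (unadjusted p = 4.71e-05, adjusted p = 0.127) and that of Ncor1 by -1.37 ± 0.136 (unadjusted p = 2.46e-06, adjusted p = 0.0744). The count of 482 ranged from 283 without shTdp-43-1 replicate 3 to 960 without shTdp-43-2 replicate 2.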

How the data were processed

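RNA of 9 samples was measured on exon arrays. The deposited values are log2 signals, 1 for each probe set on each array. The authors obtained them by RMA with Expression Console, per the submitters' processing notes; these name mm9, and the version of the software is not stated there. RMA subtracts background and brings arrays to 1 distribution, so shifts shared by most probes are largely removed. Symbols came from the platform annotation, updated through RefSeq (GRCm38.p6): 318760 of 1256831 probe sets have 1 symbol. Kept were probe sets with a 9-array mean of at least the table median (6.07), in genes with at least 3: 248701 probe sets in 16770 genes.

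All 3 groups entered 1 limma fit (3.58.1 in R 4.3.3; 6 residual degrees of freedom), with p-values adjusted over all genes or, for usage (diffSplice), all probe sets. With 3 arrays against 3 an exact permutation test cannot go below 0.1. The number of arrays limits the precision. The scripts were tested on simulated data; the gene test and the usage test with each probe set's spread gave few false calls, and diffSplice gave more false than true calls where probe sets of a gene differed in spread. The labels do not say that replicate numbers mark a shared culture. Deviations of same-numbered shCont and shTdp-43-2 arrays correlated at 0.335, 0.0406 and 0.128, and those of differently numbered ones at -0.283 to 0.153. Same-numbered arrays of the hairpins correlated at 0.593, -0.383 and 0.152. A partial pairing is possible, and the replicate block was run as an alternative.

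Named were the 15 largest called changes each way, the 15 largest each way apart from shTdp-43-1, 12 and 8 usage probe sets each way and members of the lists; other names were chosen after their values were seen. The members and lists were chosen with earlier results of these data known. Alternatives changed the dim filter, scaling, gene summary, prior, probe sets per gene, arrays fitted, replicate block and single arrays.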

Additional observations from a re-analysis of the deposited data

Results flagged for a closer look

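The results here were singled out because the effect of shTdp-43-2 against shCont differed from that of shTdp-43-1 against the same controls, by a test of the difference between the hairpins. At the gene level 1095 genes (6.53%) were called with shTdp-43-2 and apart from shTdp-43-1. At the probe set level 482 usage changes (0.194%) were, by diffSplice alone. With the spread of each probe set the difference between the hairpins was called for 0 probe sets by limma, so the 482 are not read alone. Of the genes called in opposite directions with the hairpins, the 4 with the widest gap are listed: shTdp-43-2 exceeded shTdp-43-1 by log2 1.91 for Mc4r, 1.63 for Rxfp1 and 1.39 for Sema3c, and Fam163a differed by -1.31. Groups of 3 arrays were not searched for outlying arrays.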

How the results depend on the processing

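Of 400 genes whose calls were recomputed (those named, and all called members of the lists), 225 were called under every alternative, the fewest being 4 alternatives for a gene, and 0 changed direction; of 88 usage probe sets 71 were. The count of 3667 genes ranged from 2484 to 3894 with single arrays left out. The count between the hairpins (1934) was 1198 with the median of probe sets and 964 to 1926 with single arrays left out, lowest without shTdp-43-2 replicate 1 and also low without shTdp-43-1 replicate 2 (1227) or 3 (1253). Genes apart (1095) numbered 710 with the median of probe sets and 575 to 1049 with single arrays left out. Usage calls (3095) numbered 375 with the spread of each probe set, an alternative chosen after seeing the data, and 1636 to 4768 with single arrays left out: 1724, 1636 and 1943 without shCont replicates 1, 2 and 3, and 4768 and 1891 without shTdp-43-2 replicates 2 and 3. Usage apart (482) numbered 0 with the spread of each probe set and 283 to 960 with single arrays left out (295 without shCont replicate 2). With the replicate number as a block, a pairing the labels do not state, the counts were 4107, 2338 and 1257 for genes and 5035 and 831 for usage. Where the shift was not set by fewer arrays, the cause was not tested. Probe sets near background have uncertain changes; other dim filters gave 2189 and 3409 usage calls.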
